A study of Mus musculus with 19 samples.

Results

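Chemokines are small secreted proteins that draw leukocytes along a gradient, and they act on seven-membrane-spanning receptors coupled to G proteins. They are named by the spacing of their first cysteines (CC, CXC, XC and CX3C), with an l for a ligand and an r for a receptor. In the lung, epithelium, endothelium and macrophages make many of them, and the cells that answer include neutrophils, monocytes, NK cells, T cells and B cells. Described here are the chemokine ligand and receptor genes in the lungs of mice that were given polycyclic aromatic hydrocarbons (PAHs) by mouth. Members were the array probes whose RefSeq accession belongs to a gene with a name starting Ccl, Cxcl, Xcl, Cx3cl, Ccr, Cxcr, Xcr or Cx3cr and then a number, leaving out Ccl5 and Cxcr2. The rule found 61 probes for 51 genes, 33 ligands and 18 receptors, among 55681 probes and 20660 gene symbols on the array.

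The animals were adult males of MutaMouse, a transgenic strain kept for mutation assays, about 12 weeks old. For 28 days in a row they were gavaged with olive oil alone (D0, 5 mice) or with olive oil holding a mixture of 8 PAHs at 15 (D1, 4 mice), 30 (D2, 5 mice) or 60 (D3, 4 mice) mg of benzo[a]pyrene equivalents daily for each kg of body weight. Lung was taken 72 h after the last gavage. Each of 19 arrays carried lung RNA in red, and in green a reference RNA, the same for all mice, that was made from mouse cell lines, and a value below is the log2 of lung over reference in 1 mouse. Reference levels differ from probe to probe, so these ratios are not compared between genes. The reference signal was well above background on 0 arrays for the probes of Ccl11, Ccr2 and Cxcl13, for 1 probe of Ccl19 and the dimmer probe of Cx3cr1, and on 1 of 19 arrays for Cxcr1 and Cxcr5.

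Whole lung holds many cell types, and in such bulk RNA a smaller number of cells of a type and less RNA per cell cannot be told apart. All 10 genes listed as markers of lung identity were measured in enough mice to be tested. Limma called 2 of their 12 probes higher at D1 (Lyve1 and Tmem100, markers of endothelium), 1 at D2 and 1 at D3 (Lyve1, by 1.31), and none lower. Mouse 23 is labelled D2 but carries a number from the D1 run, and the group sizes that the study's methods list would also put it in D1. It was kept in D2 as labelled. Counting it in D1 ended or made 3 member calls, 1 each of Cxcl1, Cxcr1 and Cxcr5, given with those genes. On every slide the array column followed the dose, and the 2 cannot be told apart. A probe was called where limma gave an adjusted p of at most 0.05 and the change was at least 1.5-fold. At D3 limma called 374 probes of all genes higher and 380 lower. Under median centring of each array in place of loess these were 81 and 17, and the median change of all probes then stood at 0.169 for D1, 0.121 for D2 and 0.0605 for D3 on the log2 scale.

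Most of the chemokine system was measurable in the lung. Of 51 genes, 37 were tested (24 ligands and 13 receptors, 45 probes), which required red signal well above background in at least 4 mice of 1 group. For 9 genes no probe was well above background in any mouse. These were the ligands Ccl1, Ccl20, Ccl22, Ccl26, Ccl28 and Cxcl2 and the receptors Ccr1, Ccr1l1 and Xcr1. Among them are the receptor of Ccl9 and Ccl6 (Ccr1), the ligand of Ccr6 (Ccl20) and a close relative of Cxcl1 (Cxcl2). The interferon-induced ligand Cxcl9, which acts on Cxcr3, was well above background in 8 of 18 mice by its better probe. Xcl1 was so in 9 mice, the eosinophil receptor Ccr3 in 5, and Cxcl3 and Ccr4 in 2 mice each. By group, Ccr3 was marked in 3 mice of D0, 1 of D1, 0 of D2 and 1 of D3, Ccr4 in 1 of D0 and 1 of D1, and Cxcl3 in 1 of D1 and 1 of D3.

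**Figure D1:**
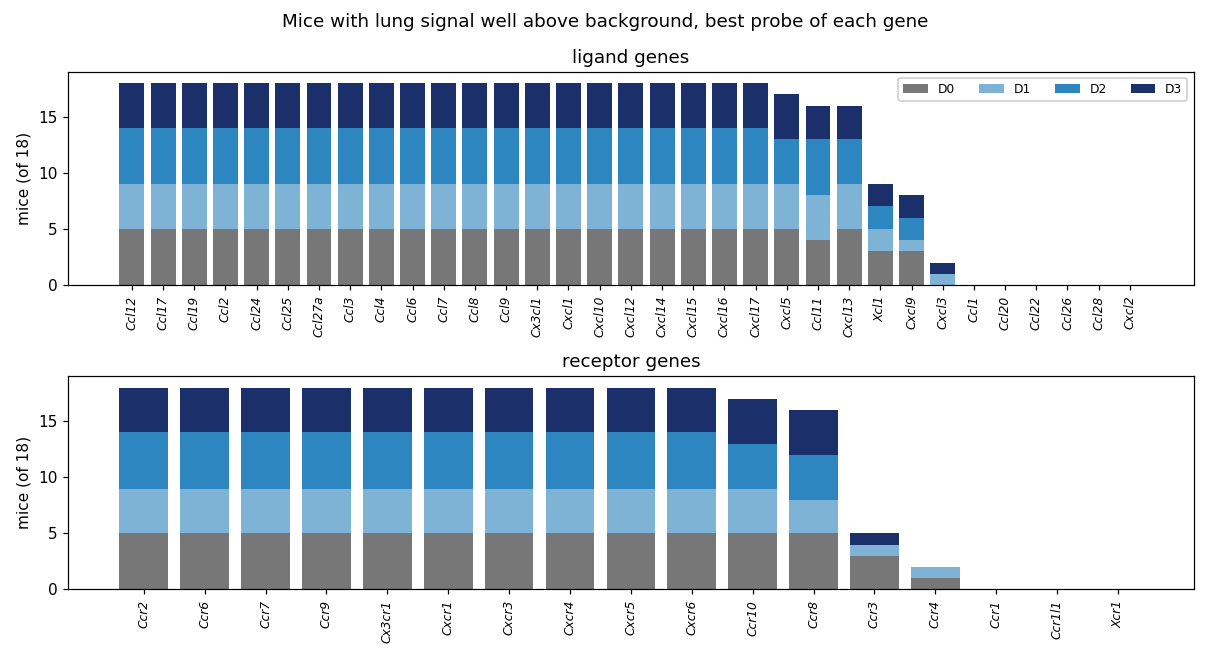
Number of mice (of 18, vertical axis) in which the lung signal of each chemokine gene was well above background, stacked by dose group, for the best probe of each gene shown. Most genes were marked in all 18 mice, and 9 genes were marked in none.

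Of 45 tested member probes 5 were called, 4 of them at the top dose only. At D3, 3 of the 45 tested member probes were called higher (Ccl9, Cxcl1 and Cxcr1), beside 1.21% of all 31005 tested probes called higher. Lower calls at D3 were 2 members (Ccl4 and Cx3cl1), beside 1.23% of all probes. At D1 the lower calls held 1 member, Ccl4, beside 0.464% of all probes, and at D2 again 1 member, Ccl4, beside 0.19%. Limma called no member higher at D1 or D2. An unadjusted p under 0.05 was met at D1 by 8 member probes (17.8%) against 19.8% of all probes, and at D2 by 9 (20.0%) against 14.7%. These comparisons share the same 5 D0 mice. A linear trend over dose was called upward for 2 members (Ccl9 and Cxcl1), beside 0.919% of all probes, and downward for 2 (Ccl4 and Cx3cl1), beside 0.535%. The adjusted p alone, without the 1.5-fold condition, was met at D3 by 6 member probes, 13.3% of those tested, against 12.4% of all probes. With the fold condition the shares of member probes at D3 were 6.67% called higher and 4.44% called lower, which rest on 3 and 2 probes.

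As a group the members varied more than most probes. The median size of the change at D3 was 0.23 on the log2 scale over the member probes and 0.13 over all tested probes. The median spread within groups was larger too, with an SD of 0.26 over the member probes and 0.15 over all. Counted with its sign, the members' median change was 0.02 at D1, -0.05 at D2 and 0.06 at D3, where 27 of 45 member probes lay above 0.

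**Figure D2:**
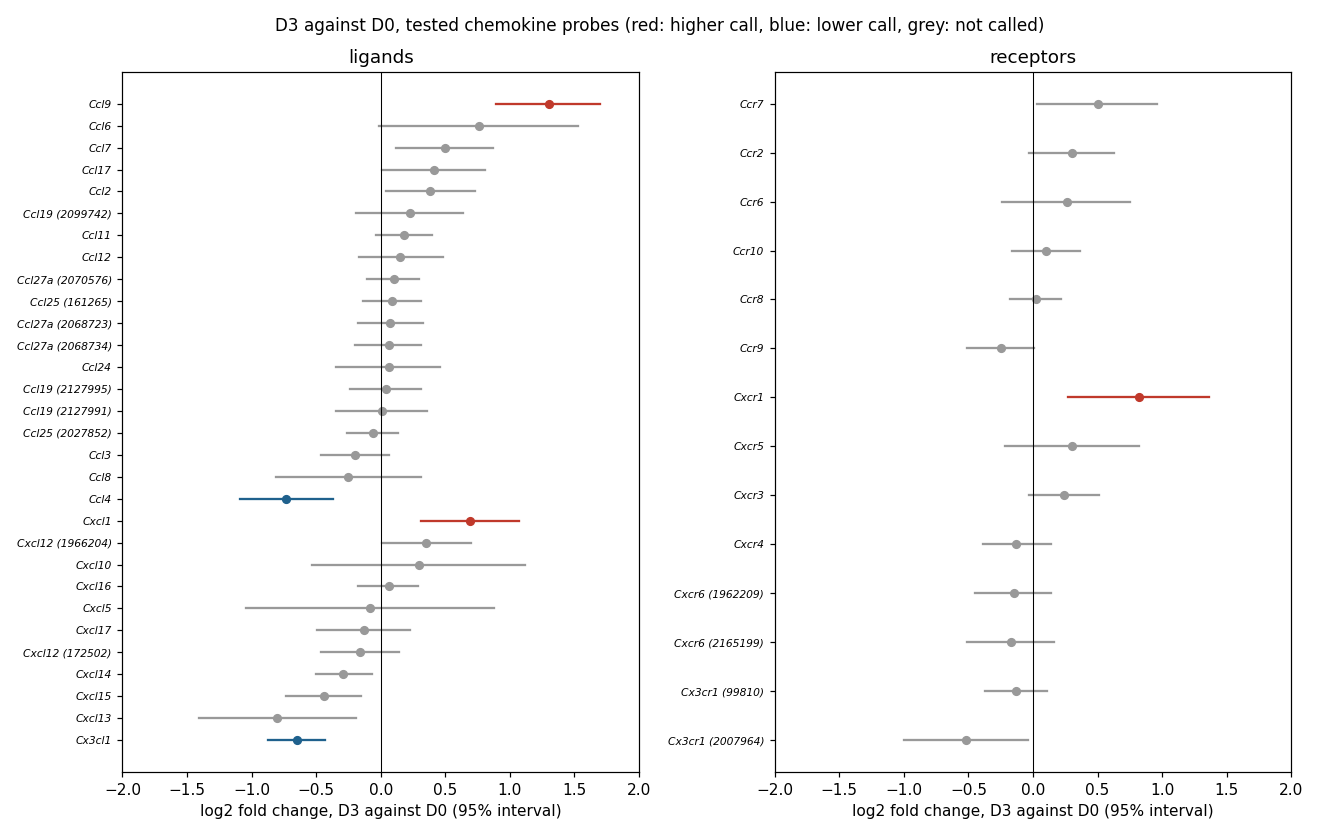
Log2 fold change of D3 against D0 with its 95% interval for tested chemokine probes, ligands at left and receptors at right, with probe numbers for genes that have several. Ccl9, Cxcl1 and Cxcr1 (red) were called higher, Ccl4 and Cx3cl1 (blue) lower, and the grey probes were not called.

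The genes called at D3 differ in the sequence before their start. RefSeq promoter sequences (GRCm38.p6) were matched for 38 of the 51 genes, in 42 entries, not for Ccl4. Shown are the 250 bases upstream of the start of the called ligands with an entry, 5′ to 3′ on the gene's strand, with matches to the NF-κB consensus in capitals. They lie at chr5:90890995-90891244 on the plus strand (Cxcl1), chr11:83578637-83578886 on the minus strand (Ccl9) and chr8:94771930-94772179 on the plus strand (Cx3cl1).
Cxcl1: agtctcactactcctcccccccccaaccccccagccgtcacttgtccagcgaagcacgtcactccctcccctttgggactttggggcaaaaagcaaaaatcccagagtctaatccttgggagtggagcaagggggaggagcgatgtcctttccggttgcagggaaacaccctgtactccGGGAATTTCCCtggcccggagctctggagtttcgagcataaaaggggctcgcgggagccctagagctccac
Ccl9: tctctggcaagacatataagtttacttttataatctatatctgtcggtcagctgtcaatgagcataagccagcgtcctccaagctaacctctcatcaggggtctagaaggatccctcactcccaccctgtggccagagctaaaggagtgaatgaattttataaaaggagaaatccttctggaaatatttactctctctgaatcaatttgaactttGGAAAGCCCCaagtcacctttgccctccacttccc
Cx3cl1: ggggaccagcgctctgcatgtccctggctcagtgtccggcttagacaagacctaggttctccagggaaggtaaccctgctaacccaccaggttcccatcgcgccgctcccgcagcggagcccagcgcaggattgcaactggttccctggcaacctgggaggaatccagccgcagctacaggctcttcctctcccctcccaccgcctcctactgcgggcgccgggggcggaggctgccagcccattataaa
NF-κB is the factor that carries many inflammatory signals to chemokine genes. Searched on both strands, its consensus occurred in 7.25% of all 32851 promoter entries of this length and in 10 of the 42 entries of members. The Cxcl1 window holds it as a pair of overlapping matches 71 to 61 bases before the start. In the Ccl9 window it lies 35 to 26 bases before the start, and in the Cx3cl1 and Cxcr1 windows there was no match. The core of the element bound by the aryl hydrocarbon receptor (AHR, which PAHs activate), GCGTG, occurred in 28.2% of all entries and 15 of the 42 member entries, and in none of these 4 windows. The AP-1 site TGANTCA was found in 6.75% of all entries, 5 member entries and the Ccl9 window. The TATA box letters TATAAA were found in 12.4% of all entries, 12 member entries, and the Ccl9 and Cx3cl1 windows. A match of letters is a description of the sequence and not a measured binding site.

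Ccl9 had the largest change at D3 of the 45 tested member probes. It encodes a CC ligand of the macrophage inflammatory protein family that acts through Ccr1. Its log2 ratio was 0.23, 0.09, -0.21, -0.20 and 0.72 in the D0 mice and 0.62, 0.85, 0.59 and 0.98 in the D1 mice. In D2 the ratio of Ccl9 was 0.11, 0.83, 1.00, 0.93 and 0.36, and in D3 it was 1.31, 1.21, 1.43 and 1.75. Every D3 mouse lay above every D0, D1 and D2 mouse. The change at D3 was 1.30 ± 0.19 (SE) on the log2 scale, 2.46-fold (adjusted p = 0.000312). Differences at D1 (0.63, adjusted p = 0.0678) and D2 (0.52, adjusted p = 0.163) did not pass. Within the 3 slides, each of which held all groups, Ccl9 at D3 was 1.04 to 1.79 above D0. Mouse 35 was the only D3 mouse on slide 3, beside 1 D0 mouse, and its other array was on slide 2. The slide differences given here and below are therefore not separate repeats. The D3 call held without each mouse in turn and was lost under median centring (1.42, adjusted p = 0.065). Ccl9 also passed at D1 when D0 mouse 5 (0.78) or D2 mouse 23 (0.63) was left out or the red channel was used by itself (0.61).

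Ccl6, Ccl3 and Ccl4 are the genes next to Ccl9 in the same chemokine cluster. Ccl6, another ligand of Ccr1, was 6.0 to 6.80 in D0 and 6.88, 7.25, 7.61 and 7.24 in D3. The D3 mice of Ccl6 lay above all D0 mice, 1 D1 mouse stood at 4.58, and the difference of 0.76 was not called (95% interval -0.01 to 1.53, adjusted p = 0.197). Ccl6 was called at D3 without D1 mouse 22 (0.76, adjusted p = 0.0395) and with red signals only (1.04, adjusted p = 0.00814). Its difference from the change of Ccl9 was not tested. Ccl3, a further ligand of Ccr1, was -2.90 to -2.48 in D0 and -2.97 to -2.80 in D3, a difference of -0.20 (adjusted p = 0.334). Ccl3 differed by -0.33 at D1 (adjusted p = 0.132), where all D1 mice lay below all D0 mice, and by -0.36 at D2 (adjusted p = 0.13), and was called at no dose. The probe of Ccr1, the receptor that these ligands share, had no lung signal well above background.

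Ccl4 was the member called at all 3 doses. It is a CC ligand that activated NK cells, T cells and macrophages release. The D0 ratios of Ccl4 were -2.17, -3.30, -2.43, -2.87 and -2.73, and the D1 ratios were -3.20, -3.24, -3.64 and -3.25. In D2 Ccl4 stood at -3.43, -3.18, -3.19, -3.69 and -3.49, and in D3 at -3.36, -3.27, -3.62 and -3.45. D0 mouse 2 lay inside the range of each treated group, and the other 4 D0 mice lay above every treated mouse. The change of Ccl4 was -0.63 at D1 (adjusted p = 0.0411). It was -0.70 at D2 (adjusted p = 0.0275) and -0.73 ± 0.17 (SE) at D3 (adjusted p = 0.0093). In fold these were 1.55, 1.62 and 1.66. The differences of Ccl4 between D2 and D1 (-0.06, adjusted p = 0.945) and D3 and D2 (-0.03, adjusted p = 0.967) were small against their SE of 0.17.

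The Ccl4 calls at the lower doses were less firm than that at D3. Within slides, the D3 difference of Ccl4 was -0.84 to -0.58. The D3 call held without each mouse in turn (-0.88 to -0.59) and was lost under median centring (-0.56). The D1 call did not hold when any of D0 mice 1, 3, 4 and 5, D1 mice 21, 22, 24 and 25 or D3 mouse 31 was left out, with changes from -0.50 to -0.78 and adjusted p from 0.00543 to 0.114 over all mice left out. The D2 call did not hold on leaving out any of D0 mice 1, 3 and 5 and D2 mice 23, 29 and 30 (adjusted p up to 0.0842). The downward trend of Ccl4 did not hold on leaving out any of D0 mice 1 and 3 and D3 mice 31, 34 and 35 (adjusted p up to 0.0906).

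Some NK cell markers were called lower at the doses at which Ccl4 was. Of 10 tested probes for 9 NK genes, 3 were called lower at D3, after 2 at each lower dose, and none higher. The D3 calls were Gzma (-3.07) and Prf1 (-0.66), which encode killing granule proteins, and the receptor Klra4 (-1.67). Of the other 7 probes, Eomes (-0.55, adjusted p = 0.00162) and Klrb1c (-0.57, adjusted p = 0.00572) missed the fold threshold only, and 5 missed the adjusted p, such as Gzmb (-0.29, adjusted p = 0.28) and Ncr1 (-0.38, adjusted p = 0.0895). The mean of the list, as log2 ratio minus the D0 mean, was -0.38 to 0.42 in D0, -0.82 to -0.25 in D1, -0.90 to -0.47 in D2 and -1.03 to -0.65 in D3. Gzma and Klra4 weigh most in this mean. The median change over the NK probes was -0.30 at D1, -0.35 at D2 and -0.47 at D3. Klrk1 was the only gene of the list below the background mark throughout. The part of these cells in the Ccl4 result was not tested. T cell markers, a further source of Ccl4, had no call at any dose (10 probes, mean 0.02 to 0.55 in D3 and -0.25 to 0.18 in D0). For macrophages, the alveolar list had 0 calls at D1, 2 lower at D2 and 2 lower at D3. Its mean was -0.56 to -0.34 in D3 and -0.20 to 0.10 in D0. The monocyte and macrophage list had no call at any dose. The part of T cells and macrophages was not tested either.

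Cx3cl1 was called lower at D3. It encodes fractalkine, a ligand that stays tethered to the surface of endothelial and epithelial cells until it is shed. The D0 ratios of Cx3cl1 were 0.32, 0.24, 0.21, 0.09 and -0.32, and the D1 ratios were -0.01, -0.20, -0.31 and -0.19. In D2 Cx3cl1 was -0.19, -0.17, -0.27, -0.36 and -0.24, and in D3 it was -0.40, -0.60, -0.49 and -0.68. All D3 mice lay below all mice of the other groups. The change was -0.65 ± 0.11 (SE) at D3 (1.57-fold, adjusted p = 0.000683), after -0.28 at D1 (adjusted p = 0.135) and -0.35 at D2 (adjusted p = 0.0745). Within slides Cx3cl1 at D3 was -0.78 to -0.42 relative to D0. The D3 call held without each mouse in turn, and was lost with the red channel alone (-0.58, under the fold threshold) and under median centring (-0.39). Without D0 mouse 1 (-0.57), D0 mouse 2 (-0.58) or D3 mouse 35 (-0.56) the downward trend of Cx3cl1 (-0.61) fell under the fold threshold.

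Cx3cr1, the receptor of fractalkine on monocytes, dendritic cells and NK cells, was read by 2 probes that differed in size. The brighter probe of Cx3cr1 was 3.42, 2.39, 3.05, 3.68 and 3.18 in D0 and 2.27, 2.76, 3.17 and 2.29 in D3. The groups overlap, and the difference of -0.52 was not called (adjusted p = 0.154). Without D0 mouse 2 this Cx3cr1 difference was -0.71 and was called. The second Cx3cr1 probe changed by -0.13 (adjusted p = 0.52). Of 10 epithelial and stromal marker probes 0 were called by limma at any dose, and the mean of that list was -0.16 to 0.13 in D0 and -0.32 to -0.02 in D3. The lung identity probes, of epithelial and endothelial genes, had a median change of -0.34 at D3, with Lyve1 alone called (1.31, higher). The part of these cells in the Cx3cl1 result was not tested.

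Cxcl1 was higher at D3 than at every other dose. It is a neutrophil attractant that epithelium and macrophages release on inflammatory signals. Its D0 ratios were -3.28, -2.89, -3.54, -3.72 and -3.43, its D1 ratios -3.60, -3.03, -3.90 and -3.17. The Cxcl1 ratios in D2 were -3.82, -3.33, -3.46, -3.70 and -3.87, and those in D3 were -2.80, -2.81, -2.79 and -2.32. The lowest D3 mouse was above the highest D0, D1 and D2 mice, by a small margin over D0 mouse 2. Cxcl1 changed by 0.69 ± 0.18 (SE) at D3 (1.61-fold, adjusted p = 0.017), against -0.05 at D1 (adjusted p = 0.911) and -0.27 at D2 (adjusted p = 0.51). Within slides the D3 difference of Cxcl1 was 0.28 on slide 1, 1.13 on slide 2 and 0.99 on slide 3. Mouse 35, the highest D3 mouse, was on slides 2 and 3 and not on slide 1.

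Between D2 and D3 Cxcl1 was the only member called, rising by 0.96 (adjusted p = 0.0332), beside 0.106% of all probes called in either direction. For D2 against D1 limma called 0 probes of any gene. At an unadjusted p under 0.05 there were 6 member probes (13.3%) against 9.82% of all probes. Without D3 mouse 35, the highest, the Cxcl1 change at D3 was 0.57 (adjusted p = 0.0734) and neither it nor the trend was called. Under median centring the D3 change was 0.79 and also not called. The D3 to D2 call of Cxcl1 ended on leaving out any of D0 mice 3 and 5, D2 mice 23, 29 and 30 and D3 mice 31, 32, 34 and 35 (0.83 to 1.03 over all mice left out), and with mouse 23 in D1 (0.91).

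Cxcr1, a chemokine receptor of neutrophils, was called higher at D3 by a narrow margin. Its ratios were 2.07, 1.77, 1.14, 2.18 and 2.36 in D0 and 2.06, 2.05, 2.03 and 2.09 in D1. In D2 Cxcr1 was 1.25, 2.03, 2.39, 2.58 and 1.71, and in D3 it was 2.19, 2.46, 3.21 and 3.03. D0 and D3 overlap, since 1 D3 mouse lay under the highest D0 mouse. The change of Cxcr1 was 0.82 ± 0.26 (SE), 1.76-fold (adjusted p = 0.0459), with 0.40 to 1.54 within slides. The Cxcr1 call held in 6 of 18 fits that left out 1 mouse (0.63 to 0.99, adjusted p 0.0285 to 0.144). The fits that lost it were those lacking any of D0 mice 1, 2 and 3, D1 mice 21, 22, 24 and 25, D2 mice 26 and 30 or D3 mice 32, 34 and 35. It held in 5 of the 11 other settings. The upward trend of Cxcr1 (0.80, adjusted p = 0.0585) was called with mouse 23 in D1 (0.88, adjusted p = 0.031), and without D0 mouse 5 (0.89), D2 mouse 23 (0.82) or D3 mouse 31 (0.98).

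**Figure D3:**
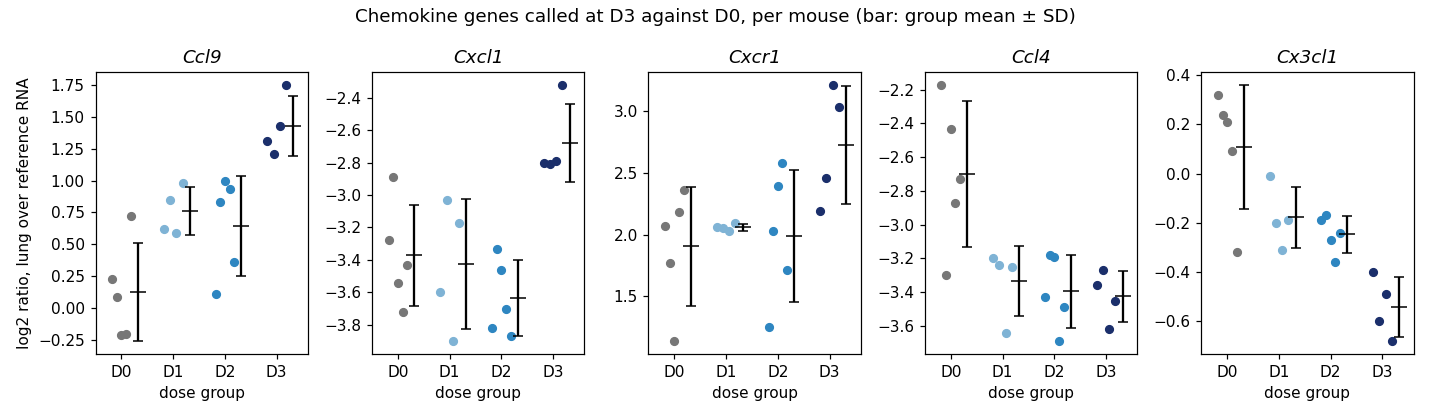
Log2 ratio of lung over reference RNA in each mouse for the 5 genes called at D3, with the group mean and SD beside the points; each panel has its own vertical range. All D3 mice are above all D0 mice for Ccl9 and Cxcl1 and below them for Cx3cl1, while Cxcr1 and Ccl4 each have a D0 mouse inside the D3 range.

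Some neutrophil markers were called higher, at the lower doses too, where Cxcl1 and Cxcr1 were not. Of 10 tested probes for 9 neutrophil genes, 4 were called higher at D3 and 2 at each lower dose, and none lower. The median change of the list was 0.87 at D1, 0.61 at D2 and 0.81 at D3. The D3 calls were S100a8 (1.77) and S100a9 (0.86), subunits of calprotectin, the collagenase Mmp8 (1.49) and the secreted protein Retnlg (1.30). Csf3r, the receptor of the neutrophil growth factor, was -0.46 at D3 (adjusted p = 0.00655), under the fold threshold. The mean of the list was -0.29 to 0.53 in D0, 0.46 to 0.88 in D1, 0.33 to 1.03 in D2 and 0.29 to 1.56 in D3, so the groups overlap. In D3 mouse 34 stood at 1.56, and the other D3 mice at 0.60, 0.46 and 0.29. All the listed neutrophil genes on the array were well above background. Their part in the Cxcl1 and Cxcr1 results was not tested. Cxcl5, the ligand of Cxcr1 made by lung epithelium, ranged from -3.36 to -1.33 in D0 and from -2.74 to -1.87 in D3. The Cxcl5 difference of -0.08 at D3 had a 95% interval of -1.04 to 0.88, too wide to show a change of the size seen in Cxcl1. Cxcl15, a CXC ligand made by lung epithelium that attracts neutrophils, was 5.74, 5.90, 6.20, 6.54 and 5.90 in D0 and 5.35, 5.66, 5.64 and 5.81 in D3. The groups overlap slightly, and Cxcl15 differed by -0.44 (adjusted p = 0.0457), short of the fold threshold. The lung identity probes had a median change of -0.34 at D3 and a list mean of -0.25 to 0.26 in D0 and -0.43 to 0.15 in D3. Their epithelial genes stood at -0.36 (Scgb1a1) and -0.32 (Sftpc) at D3, not called. Their part in the Cxcl15 difference, and in that of Cxcl14 below, was not tested.

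Ccl2, Ccl7 and Ccl12 act on monocytes, and none of them was called. Ccl2, which recruits monocytes through Ccr2, was -4.10, -4.25, -4.46, -4.65 and -4.12 in D0 and -3.94, -4.20, -4.24 and -3.36 in D3. The difference of 0.38 was not called (adjusted p = 0.146), and D3 mouse 35 was the highest. Ccl7, on the same receptor, was 0.50 higher at D3 (adjusted p = 0.0789), with mouse 35 again the highest at -3.09 against -3.96 to -3.61 in the other D3 mice. Ccl7 was called at D3 with processed signals (0.97) and without D3 mouse 34 (0.62). Ccl12, the remaining Ccr2 ligand here, differed by 0.15 (adjusted p = 0.577). Ccr2 itself was 1.20 to 1.61 in D0 and 1.34 to 2.09 in D3, a difference of 0.30 (95% interval -0.03 to 0.63, adjusted p = 0.233). None of the 13 probes for monocyte and macrophage markers was called at any dose. Of 13 alveolar macrophage marker probes 2 were called lower at D2 (Ear1 and Siglecf) and 2 others at D3 (Fabp1 and Krt79). The mean of that list was -0.20 to 0.10 in D0 and -0.56 to -0.34 in D3. Its member Marco went the other way, by 0.94 at D3 (adjusted p = 0.0745). Of 12 dendritic cell marker probes 2 were called lower at D1 (Clec9a and Siglech), 1 at D2 (Siglech) and 2 at D3 (Siglech and Cd209a). Their part in the values of these ligands was not tested.

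Ligands for eosinophils and helper T cells were not called. Ccl11, an eosinophil attractant, was 0.42 to 0.75 in D0 and 0.52 to 0.92 in D3, with a difference of 0.18 (adjusted p = 0.299). Ccl24, which shares the receptor Ccr3, differed by 0.06 (adjusted p = 0.895). Of 8 probes for eosinophil and mast cell markers 0 were called by limma at D1 or D3 and 1 was called lower at D2 (Siglecf, -1.05, adjusted p = 0.036). This Siglecf probe is also on the alveolar macrophage list, where the same call was counted above. Of the 10 genes of the eosinophil and mast cell list, 3 had no signal well above background. Ccl17, the ligand of the helper T cell receptor Ccr4, was 0.54 to 0.89 in D0, and 0.89, 0.39, 1.40 and 1.61 in D3. The Ccl17 difference of 0.41 was not called (adjusted p = 0.182), and without D3 mouse 32 it was 0.64 and called. Cxcl10, an interferon-induced ligand of Cxcr3, had the widest D0 spread of the tested members, from -2.59 to 0.00, and changed by 0.30 at D3 with a 95% interval of -0.53 to 1.12. Cxcr3 differed by 0.24 at D3 (adjusted p = 0.257).

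Among genes of lymphocyte traffic, Cxcl13, the attractant of B cells into follicles, was 1.03, 1.5, 1.45, 1.30 and 1.52 in D0 and 0.56, 0.03, 0.77, 0.50 and 0.75 in D2. In D3 Cxcl13 was 0.48, -0.05, 0.54 and 1.26. All D2 mice were under all D0 mice, yet the differences of -0.84 at D2 (adjusted p = 0.13) and -0.80 at D3 (adjusted p = 0.0804) were not called. Without D1 mouse 22, whose Cxcl13 ratio was 2.36, both differences were called at the same size. The D3 difference of Cxcl13 was called also with the red channel alone (-0.93) and without D3 mouse 35 (-1.04). Its receptor Cxcr5 was 1.49 to 2.68 in D0 and 2.41 to 3.40 in D2, higher by 0.79 at D2 (adjusted p = 0.0854) and by 0.30 at D3 (adjusted p = 0.479). The D2 difference of Cxcr5 was called with mouse 23 in D1 (0.94, adjusted p = 0.0369), without that mouse (0.94) and with slide as a block (0.79, adjusted p = 0.0318).

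Ccr7, which guides T cells and dendritic cells to lymphoid zones, was 3.61, 2.62, 3.48, 3.35 and 3.27 in D0. In D2 Ccr7 was 3.84, 3.48, 4.16, 4.25 and 4.24, and the groups overlap by the 3.48 of 1 mouse. Its difference of 0.73 at D2 was not called (adjusted p = 0.0784). It was called with slide as a block (0.73) and without D2 mouse 26 (0.86). Ccr6, a receptor of B cells and some T cells, was 0.65 higher at D2 (adjusted p = 0.147) and 0.26 at D3 (adjusted p = 0.538). Of 10 B cell marker probes 0 were called at any dose, with a list mean of -0.65 to 0.35 in D0, -0.10 to 0.78 in D2 and -0.21 to 0.30 in D3. The median change of the B cell list was 0.46 at D2 and -0.03 at D3. The T cell list had a median change of 0.28 at D2 with 0 probes called, and its mean was 0.05 to 0.44 in D2 against -0.25 to 0.18 in D0. The part of B and T cells in the Cxcr5, Ccr7 and Ccr6 differences was not tested. The 3 probes of Ccl19, a ligand of Ccr7, changed by 0.01, 0.04 and 0.23 at D3. Ccl19 has near-identical copies in the mouse genome, as has Ccl27a, and probes may not tell the copies apart.

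**Figure D4:**
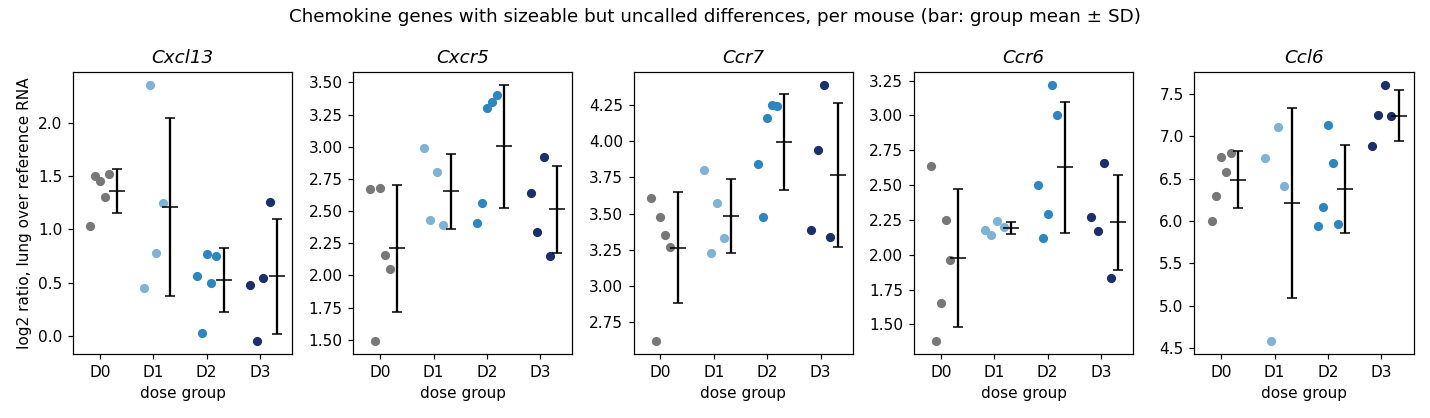
Log2 ratio of lung over reference RNA in each mouse for Cxcl13, Cxcr5, Ccr7, Ccr6 and Ccl6, none of which was called in the model used here, with group mean and SD. D2 mice lie below all D0 mice for Cxcl13, D0 and D2 overlap for Cxcr5, Ccr7 and Ccr6, and a D1 mouse stands apart for Cxcl13 (2.36) and Ccl6 (4.58).

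Ligands that lung tissue makes at rest were not called either. Cxcl12, the retention signal for cells with Cxcr4, was read by 2 probes with opposite differences at D3, -0.16 (adjusted p = 0.511) for the brighter and 0.35 (adjusted p = 0.183) for the other. At D1 all mice of the brighter Cxcl12 probe lay under D0 (0.12 to 0.64 against 0.66 to 1.02), a difference of -0.38 that was not called (adjusted p = 0.14). Cxcr4 was 0.46 to 1.13 in D0 and 0.52 to 0.82 in D3 (difference -0.13, 95% interval -0.39 to 0.14). Cxcl14, an epithelial ligand, was 3.32 to 3.81 in D0 and 3.11 to 3.42 in D3, a difference of -0.29 (adjusted p = 0.0735). The mucosal ligand Cxcl17 differed by -0.13 at D3, and Cxcl16, the ligand of Cxcr6, by 0.06. The 2 probes of Cxcr6 differed by -0.15 and -0.17. Ccl8, Ccl25, Ccl27a, Ccr8, Ccr9 and Ccr10 had differences between -0.25 and 0.10 at D3, and none of them was called.

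Outside the named families, 2 genes of the same system were called. Ackr3 (formerly Cxcr7), an atypical receptor that removes Cxcl12 from tissue without coupling to G proteins, was 0.60, 1.12, 0.87, 0.04 and 0.64 in D0 and 1.17, 1.84, 1.72 and 1.30 in D1. In D2 Ackr3 was 1.30, 1.54, 1.04, 1.49 and 1.07, and in D3 it was 2.09, 2.10, 2.19 and 2.59. D1 and D3 mice lay above all D0 mice, and D3 mice above all others. Ackr3 rose by 0.85 at D1 (adjusted p = 0.0119). Its difference at D2 was 0.63 (adjusted p = 0.0648), and it rose by 1.59 at D3 (adjusted p = 2.3e-05). Pf4, a CXC ligand stored in platelets, was higher by 0.73 at D3 (adjusted p = 0.0386), with D3 values of 0.49, -0.33, 0.39 and -0.13 against -0.91 to -0.35 in D0. In D1 Pf4 was -0.69 to -0.17 and in D2 -0.63 to 0.85, so D3 overlapped both. The highest value was in D2 mouse 26. Ackr3 and Pf4 were the only D3 calls among 15 probes for 10 such genes. The decoy receptor Ackr4 was -0.52 at D3 (adjusted p = 0.0208), short of the fold threshold.

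Genes that act before or after chemokines were counted too. Of all tested probes, 1.21% were called higher and 1.23% lower at D3, and the counts below were not tested against these shares. Of 28 probes for 20 genes of chemokine receptor signalling, limma called 0 at any dose. Of 19 probes for 17 genes that induce chemokines or regulate that induction, 1 was called at D3 and 0 at D1 and D2. The second kind includes Nfkbia and Tnfaip3, which restrain NF-κB. This was Il1b, the inflammatory cytokine, which was 1.71, 2.00, 1.74, 1.70 and 1.65 in D0 and 2.42, 2.68, 4.00 and 2.22 in D3. In D1 Il1b was 2.14, 2.35, 2.11 and 2.57, and in D2 it was 1.90, 2.41, 1.80, 2.37 and 2.21. All D1 and D3 mice of Il1b lay above D0, D3 mouse 34 farthest, and D3 overlapped D1 and D2. The change was 1.07 at D3 (adjusted p = 0.00793), after 0.53 at D1 (adjusted p = 0.237) and 0.38 at D2 (adjusted p = 0.491). No fit without mouse 34 is given for Il1b. Tnf differed by 0.13 at D3 (adjusted p = 0.373), and Il6, Il17a and Il13 did not pass the filter on signal.

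**Figure D5:**
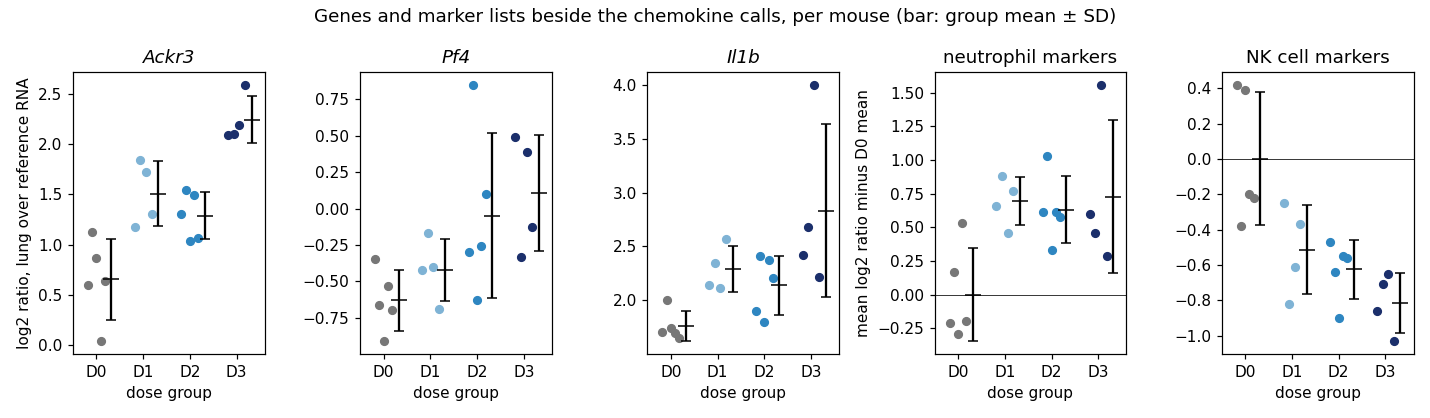
Log2 ratio in each mouse of Ackr3, Pf4 and Il1b (left), and the mean log2 ratio minus the D0 mean of neutrophil and NK cell marker lists (right), with group mean and SD. Ackr3 is highest in all D3 mice, and the NK cell list is lower in every D3 mouse than in every D0 mouse while the neutrophil list overlaps.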

How the data were processed

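Lung RNA of 18 mice was measured on 19 Agilent 2-colour arrays. The scanner files, as deposited, give intensity per spot, as median pixel brightness and as signals processed by Feature Extraction 11.0.1.1 per the file headers. The deposited series table holds log2 ratios that the authors had normalized, and it correlated at 0.995 to 0.998 with the ratios computed here. Scanner marks for signal well above background were deposited beside the intensities.

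Of 62976 spots per array, 3671 controls and 171 to 323 outlier spots were dropped. Raw median signals, with no background subtracted, were normalized by loess (span 0.3) within arrays, probes were averaged, and the 2 arrays of mouse 35 were averaged. The array median signal was 114 to 151.5 in red and 65 to 93 in green. The number of arrays limits the precision. No dyes were swapped, so ratios are open to dye bias. A RefSeq table (GRCm38.p6) gave symbols for 27235 of 28685 accessions of RefSeq type. Of 55681 probes, 80 lacked a mouse. Tested were 31005 probes.

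Groups were compared in 1 limma 3.58.1 model (R 4.3.3, lmFit and eBayes), with Benjamini-Hochberg adjusted p over all tested probes. All p-values given are from it. It replaced MAANOVA with residual shuffling, the study's method, which was not run here. The pipeline was tested on simulated data. Members, gene lists and tests were chosen with earlier results of these data known. Named were members called in any comparison, their ligand or receptor partners and a fixed set of lung chemokines, by the brightest probe of each gene. Of the fixed set, Ccl21a was not matched on the array, and 1 member is counted but not reported here. Ccl6, Ccl7, Ccr6, Cxcr5 and other members outside that rule were chosen after their values were seen. Alternatives were median centring, processed signals, normexp background, the red channel alone, the deposited table, other filters, adjusted p alone, slide as a block, mouse 23 in D1, each array of mouse 35 alone and leaving out each mouse.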

Additional observations from a re-analysis of the deposited data

Results flagged for a closer look

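Of 76 groups of 4 or 5 mice checked over the named genes, 6 (7.89%) held a mouse far from the others of its group by Dixon's test, where chance gives about 1 in 20. The ratio of Cxcl1 in D3 mouse 35 was -2.32, against -2.81 to -2.79 in the other D3 mice. The same mouse stood apart for Cxcl10 at -0.17, against -1.61 to -1.44. In D3 mouse 32, Ccl11 was 0.52, against 0.88 to 0.92, and Cxcl5 was -1.87, against -2.74 to -2.60. In D1 mouse 24, Ccl4 was -3.64, against -3.25 to -3.20, and Cx3cr1 was 3.35, against 2.83 to 2.87. Mouse 35 was measured on 2 arrays, which gave -2.20 and -2.43 for Cxcl1. No cause was tested for any of these values.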

How the results depend on the processing

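The count of called member probes was 1 at D1, 1 at D2, 5 at D3, 4 for the trend, 0 for D2 against D1 and 1 for D3 against D2. Median centring gave 0 in each comparison, with the direction of the called genes kept. Without the filter on dim probes the D1 count was 0. With slide as a block the D2 count was 3, and with mouse 23 in D1 it was 2. The D3 to D2 count was 0 with processed signals and with mouse 23 in D1. Leaving out 1 mouse gave 0 to 2 at D1, 0 to 2 at D2, 4 to 6 at D3, 2 to 5 for the trend, 0 to 0 for D2 against D1 and 0 to 2 for D3 against D2. Other settings kept these counts within 1.5 times. For single named genes, over the differences of each dose from D0 and the called trends and dose steps, 1706 alternative values kept their side of the threshold, 69 fell below it and 11 passed it. None of the called values changed sign. Trends and dose steps that were not called are not in these counts. Over the settings other than leaving out mice, the adjusted p at D3 reached 0.627 for Ccl4, 0.065 for Ccl9, 0.847 for Cx3cl1, 0.536 for Cxcl1 and 0.71 for Cxcr1. Cxcr1 at D3 was not called with processed signals (0.74), the red channel alone (0.76), the deposited table (0.74), no filter (0.82), median centring (0.79) or array 2 of mouse 35 alone (0.78). Ccl4 at D1 was not called with the red channel alone (-0.57) or without the filter. No paired analysis was possible because the groups share no mouse numbers, and slide, which held all groups, was used as a block instead. The cause of these differences was not tested. Dim probes limit the account, since 9 genes had no signal well above background.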
